A study of Homo sapiens with 12 samples.

Results

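The hypoxia response was followed in HepG2 cells, a human hepatocellular carcinoma line, through 10 genes, namely HIF1A and 9 genes widely used as readouts of its activity (VEGFA, ADM, CA9, NDRG1, BNIP3, BNIP3L, EGLN1, EGLN3 and ANKRD37). They were chosen by name as known hypoxia genes, with earlier results of these data in view, out of 57500 genes counted in 12 RNA sequencing libraries, and each was found there under its Ensembl identifier. The study compared, with 4 replicates each, wild-type cells (WT) and the engineered lines shTST and overTST. In shTST, thiosulfate sulfurtransferase (TST, the rhodanese that converts cyanide to thiocyanate) was silenced with an shRNA plasmid. In overTST, TST was overexpressed from a codon-optimised cassette under the CMV promoter. The methods describe the same lentiviral packaging for both plasmids and blasticidin selection of the transduced cells. All 3 groups were kept for 24 h in ordinary culture medium, which contained 400 µM glycine, and the methods describe no lowering of oxygen for these libraries. The control is called wild-type, with no mention of an empty or scrambled vector, so transduction and selection cannot be told apart from the TST manipulation, and whether a line was 1 clone or a pool is not given in the sources used here.

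HIF1A encodes the oxygen-regulated subunit of hypoxia-inducible factor 1, which pairs with ARNT and binds the hypoxia response element in front of its target genes. With oxygen present, the prolyl hydroxylases EGLN1 and EGLN3 modify the HIF1A protein so that the VHL ubiquitin ligase recognises it and the proteasome degrades it, which means that much of the pathway is controlled at the protein and not at the mRNA level. The readout genes serve angiogenesis and vascular tone (VEGFA, ADM), pH balance (CA9), removal of mitochondria (BNIP3, BNIP3L) and stress adaptation (NDRG1, ANKRD37), and EGLN1 and EGLN3 are themselves HIF targets that feed back on the factor.

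The core of the hypoxia response element reads ACGTG or GCGTG. Promoter windows from 250 bases before to 50 bases after the RefSeq start site (GRCh38.p14) were at hand for 7 of the 10 genes, and 6 of these held at least 1 match on either strand, EGLN3 being the exception. Of all 27305 genes with a window, 52.4% held a match, so that the letters alone are common, and ACGTG by itself was found for 4 of the 7 genes and for 24.9% of all. Among 54 other known HIF targets with a window, 50 held a match (92.6%). Windows are shown for the regulator HIF1A and for the oxygen sensor EGLN1, called lower in both engineered lines, in overTST only before length correction. They are also shown for the targets BNIP3 and ANKRD37, called different between the lines. Those BNIP3 and ANKRD37 calls were lost in several fits that left out a library, as given below. Capitals mark the matches. Each window is written 5′ to 3′ on the strand of its gene. A match is only a run of letters and was not tested for binding.
HIF1A, chr14:61695263-61695562, plus strand: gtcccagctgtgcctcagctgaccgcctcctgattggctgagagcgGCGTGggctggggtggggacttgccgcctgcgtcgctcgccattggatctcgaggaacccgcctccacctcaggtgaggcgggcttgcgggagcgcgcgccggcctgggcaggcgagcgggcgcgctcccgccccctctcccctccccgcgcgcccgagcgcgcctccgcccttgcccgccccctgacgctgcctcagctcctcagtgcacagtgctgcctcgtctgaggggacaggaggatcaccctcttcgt
EGLN1, chr1:231422238-231422537, minus strand: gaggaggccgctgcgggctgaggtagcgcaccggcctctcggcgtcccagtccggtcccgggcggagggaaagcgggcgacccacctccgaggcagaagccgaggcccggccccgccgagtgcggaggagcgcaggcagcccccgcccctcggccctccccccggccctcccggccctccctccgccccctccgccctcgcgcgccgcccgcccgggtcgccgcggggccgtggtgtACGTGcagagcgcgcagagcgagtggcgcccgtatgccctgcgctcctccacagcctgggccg
BNIP3, chr10:131981874-131982173, minus strand: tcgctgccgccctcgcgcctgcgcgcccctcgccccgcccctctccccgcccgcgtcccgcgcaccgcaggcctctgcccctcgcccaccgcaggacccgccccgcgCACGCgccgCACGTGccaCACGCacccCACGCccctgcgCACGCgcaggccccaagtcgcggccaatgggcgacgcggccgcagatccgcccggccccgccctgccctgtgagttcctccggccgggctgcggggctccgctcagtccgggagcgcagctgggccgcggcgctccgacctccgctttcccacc
ANKRD37, chr4:185396591-185396890, plus strand: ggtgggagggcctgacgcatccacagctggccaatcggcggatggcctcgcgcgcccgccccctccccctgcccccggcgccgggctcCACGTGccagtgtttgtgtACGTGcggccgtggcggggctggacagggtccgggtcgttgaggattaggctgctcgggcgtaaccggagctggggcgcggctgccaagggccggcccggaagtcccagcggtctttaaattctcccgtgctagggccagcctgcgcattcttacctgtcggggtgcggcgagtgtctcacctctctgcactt
The HIF1A window shown held 1 match, at position -204 from the start site, and a second window of HIF1A, chr14:61697462-61697761, held 0. A gene with several windows was counted once if any of them held a match. The EGLN1 window held 1, at -13. The BNIP3 window held 6 matches between -143 and -104, 2 of them the overlapping strands of the palindrome CACGTG. The ANKRD37 window held 3, of which those at -162 and -161 form the same palindrome and the last lies at -143.

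Total counts per library ranged from 28866175 to 45120508 in WT, from 27527854 to 33865386 in shTST and from 22911380 to 27414142 in overTST. The overTST libraries were therefore all shallower than the WT libraries, and the part of depth in the results was not tested. The share of reads from the mitochondrial genome was 6.91 to 12% in WT, 6.84 to 8.65% in shTST and 10.8 to 11.7% in overTST, so that the engineered lines did not overlap. Leaving its genes out of the fit changed no count of calls among the 10 genes. The WT libraries were the least alike, with a chi-square per gene of 6.3 to 38.9 between pairs, the highest being replicate 4 against replicates 1 and 3, compared with 3.78 to 10.5 within the other groups. Without WT replicate 4 the 10 genes still gave 3 lower calls with shTST and 3 with overTST. All 9 hepatocyte markers were expressed, with a summed level of 23459 to 26453 normalised read counts (CPM, scaled to library size) in WT, 24690 to 28945 CPM in shTST and 21720 to 26239 CPM in overTST. Of the 9, 4 were called higher and 2 lower in shTST, against 16.1% of all genes called. ALB averaged 5738 CPM in WT and 7508 CPM in shTST. In overTST 2 were higher and 2 lower, against 33.9% of all genes called. In shTST against overTST 6 were higher and 1 lower, against 33% of all genes called. DESeq2 and limma-voom gave 4 and 3 higher there, 4 and 3 in shTST, and 1 each in overTST. The part of these markers in the results was not tested. The 7 markers of other cell types summed to 55.4 to 61.5 CPM in WT, 57.8 to 60.1 CPM in shTST and 60.7 to 70.6 CPM in overTST. Most of this was ACTA2, while leukocyte PTPRC was at 0 in 11 of 12 libraries, COL3A1 and DES stayed below 0.2 CPM, and endothelial PECAM1 averaged 2.14, 1.61 and 3.28 CPM in WT, shTST and overTST. The other endothelial marker, CDH5, averaged 0.555, 0.299 and 0.229 CPM and COL1A1 1.28, 1.40 and 0.926 CPM. Of the 4 of these markers that were tested, 0 were called in shTST by edgeR, DESeq2 or limma-voom (2 at an unadjusted edgeR p under 0.05). Over all genes edgeR called 16.1% there. In overTST 2 of these markers were higher and 1 lower, against 33.9% of all genes called. Their part in the results was not tested. TST itself was at 47.2, 47.5, 52.8 and 48.5 CPM in WT, 33.0, 33.6, 36.6 and 33.5 CPM in shTST, and 51.8, 56.0, 61.6 and 62.1 CPM in overTST. It fell by 0.52 on the log2 scale in shTST (edgeR adjusted p = 3.2e-06). In overTST it rose by 0.24 (edgeR adjusted p = 0.00384), but a correction for gene length left 0.10 (edgeR adjusted p = 0.201), and reads from a codon-optimised transgene need not map to the native gene.

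In WT cells the transcripts covered a wide range. Expressed per kilobase of exon (RPKM, which allows genes to be compared), HIF1A led with 24.9 ± 1.79 (SD, n = 4), above 87.5% of the 14883 genes tested. BNIP3 (14.3 ± 1.2 RPKM), EGLN1 (8.14 ± 0.563 RPKM) and BNIP3L (5.70 ± 0.909 RPKM) followed, and none of these first 4 overlapped its neighbour in range. VEGFA (3.76 ± 0.0810 RPKM) overlapped NDRG1 (3.45 ± 0.542 RPKM), and NDRG1 overlapped ADM (2.54 ± 0.415 RPKM). ANKRD37 (0.712 ± 0.131 RPKM) and CA9 (0.601 ± 0.0938 RPKM) also overlapped, and EGLN3 came last at 0.0944 ± 0.0472 RPKM, with 3.18% of the genes tested below it. The length used is that of all annotated exons together, so a gene with many annotated bases that its mRNA does not use can be placed too low. This limit bears on EGLN3, with 7359 bases, and on VEGFA, with 14431 bases in 4 merged exons. The order at the top was the same in shTST and overTST, where HIF1A reached 22.2 ± 0.998 and 18.1 ± 1.31 RPKM and BNIP3 13.3 ± 0.957 and 15.3 ± 1.2 RPKM.

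**Figure D1:**
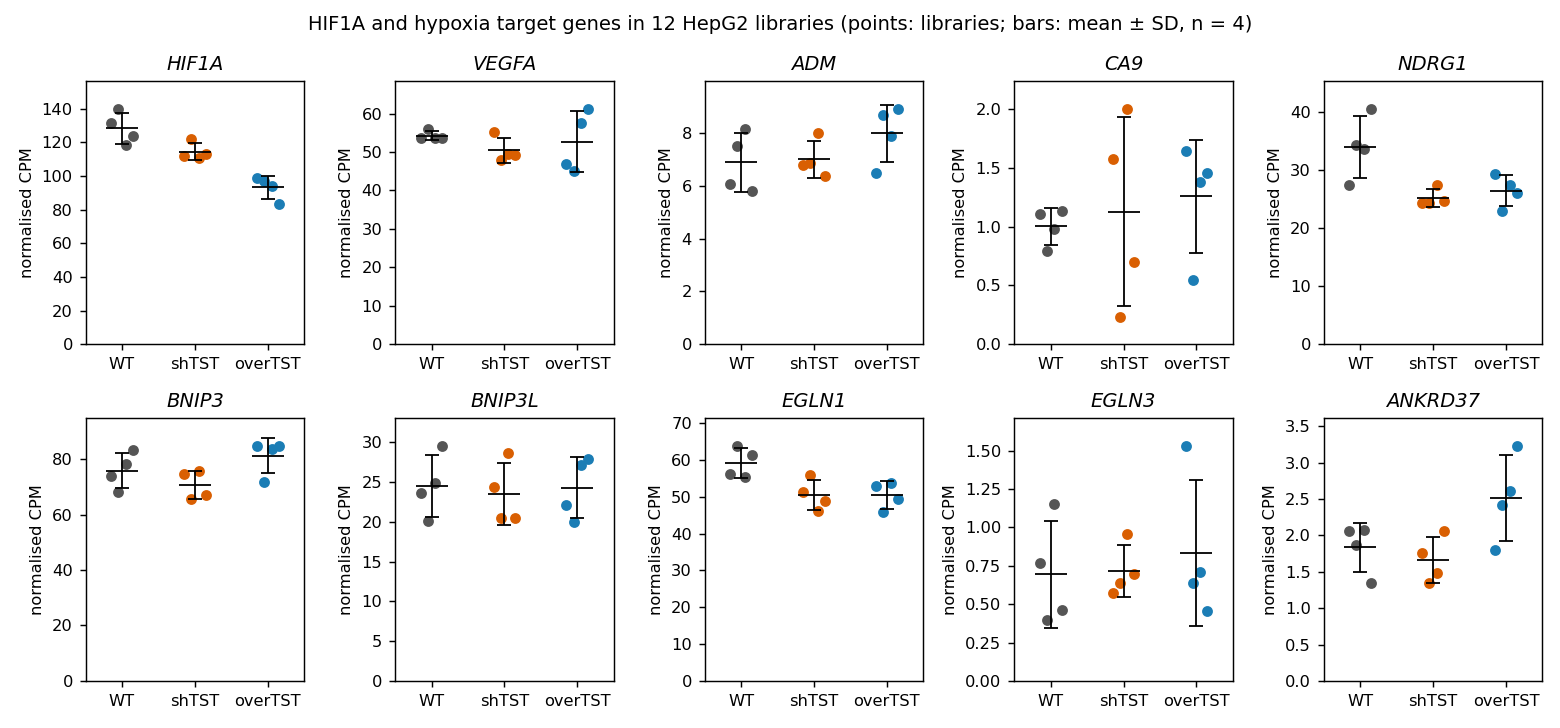
Normalised CPM (vertical axis, from 0, scaled for each gene) of the 10 genes in the 12 libraries, with points for libraries and bars for the mean ± SD of 4. HIF1A steps down from WT (118 to 140 CPM) to shTST (111 to 122 CPM) to overTST (83.6 to 98.7 CPM), and the spread of CA9 and EGLN3 covers all differences between their groups.

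The question put to the data was whether changing TST in either direction moved the hypoxia genes. Here a gene is called when its edgeR quasi-likelihood p, adjusted by Benjamini-Hochberg over all genes tested, is 0.05 or less. All 10 genes passed the filter on low counts. With shTST 3 of the 10 were called, all lower (HIF1A, EGLN1 and NDRG1) and none higher, against 16.1% of all genes called, of which 6.69% higher and 9.4% lower. DESeq2 and limma-voom also called none higher, and at an unadjusted edgeR p under 0.05 there were 0 higher in shTST and 1, ANKRD37, in overTST. With overTST the calls were also 3 lower, for HIF1A, EGLN1 and NDRG1, and none higher, against 33.9% of all genes called (15.7% higher and 18.2% lower). After correction for gene length only the HIF1A call remained in overTST. With replicate number added to that correction as a block, NDRG1 was called as well. Upper-quartile scaling moved the share of higher genes among all calls from 41.6% to 52.7% for shTST, and no call of the 10 genes changed with it. The groups did not overlap for 0 of the 10 genes with shTST (19.1% of all genes) and for 2, HIF1A and EGLN1, with overTST (30.4% of all genes). Both comparisons used the same 4 WT libraries, so that their likeness is not independent. In these bulk samples fewer cells with a transcript and less of it per cell cannot be told apart.

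HIF1A, on chromosome 14 from 61695513 to 61748259 (plus strand, GRCh38 with GENCODE 29 names), was lower in both engineered lines, and lower in overTST than in shTST. Its values, like all others here, are summed over the exons of the gene. It was at 131, 140, 118 and 123 CPM in WT, at 112, 122, 111 and 113 CPM in shTST, and at 98.7, 96.7, 93.9 and 83.6 CPM in overTST. All 4 overTST libraries lay below all WT and all shTST libraries, whereas shTST and WT overlapped, since the second shTST library exceeded the third WT library. With overTST the mRNA fell by 0.46 ± 0.059 (SE) on the log2 scale, a change of -27.3% with a 95% interval of -0.58 to -0.34 log2 (edgeR adjusted p = 2.9e-06). With shTST it fell by 0.17 ± 0.051 on the log2 scale, or -10.8% (edgeR adjusted p = 0.0276). The shTST call was lost when WT replicate 1 or 2 or shTST replicate 1, 3 or 4 was left out, with an edgeR adjusted p of 0.0646 to 0.0967, and the change then lay between -0.16 and -0.12 log2. HIF1A was also the 1 gene of the 10 without overlap between shTST and overTST (29.2% of all genes). The direct comparison gave a level 0.29 ± 0.056 log2 higher in shTST than in overTST (edgeR adjusted p = 2.9e-04). That difference was 0.17 log2 after correction for GC content (edgeR adjusted p = 0.0189), and its adjusted p over all alternatives ranged from 1.4e-07 to 0.0189.

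The genes whose pattern over the 12 libraries came closest to that of HIF1A were PTPRK, a receptor tyrosine phosphatase, MACF1, a cytoskeletal linker, and PRRC2B. Their centred log2 CPM differed from that of HIF1A by a root mean square of 0.039, 0.047 and 0.047, against a median of 0.239 over 11531 genes. This likeness describes the libraries, since all genes of a library share its depth and scaling.

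EGLN1, the main HIF prolyl hydroxylase of normoxic cells (chromosome 1, 231363751 to 231425044, minus strand), was at 56.1, 63.8, 55.3 and 61.2 CPM in WT, at 51.4, 55.8, 46.2 and 48.8 CPM in shTST, and at 53.1, 45.8, 53.8 and 49.3 CPM in overTST. Every overTST library lay below every WT library, and shTST overlapped WT by its second library alone. EGLN1 fell by 0.23 log2 in both lines, with an SE of 0.060 in shTST (edgeR adjusted p = 0.0120) and of 0.062 in overTST (edgeR adjusted p = 0.00626), the latter not called after length correction (-0.13 log2, edgeR adjusted p = 0.0815). The direct difference between the lines was near 0, with a 95% interval of -0.13 to 0.13 log2. Leaving out shTST replicate 3 gave an edgeR adjusted p of 0.0517 for shTST. EGLN3, the hydroxylase that hypoxia induces most strongly in many cells, rested on only 10 to 41 reads per library. Its levels ran from 0.395 to 1.15 CPM in WT, from 0.573 to 0.957 CPM in shTST and from 0.455 to 1.53 CPM in overTST, and the groups overlapped. The 95% interval of its change was -0.55 to 0.76 log2 in shTST and -0.40 to 1.08 log2 in overTST, so a moderate change in either direction was not detectable in these libraries.

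NDRG1, a stress-responsive gene often used as a hypoxia marker (chromosome 8, 133237171 to 133302022, minus strand), was at 27.4, 34.2, 33.6 and 40.4 CPM in WT. It was at 24.2, 24.2, 27.4 and 24.6 CPM in shTST and at 29.3, 23.0, 27.3 and 25.9 CPM in overTST. The first WT library was low and overlapped the highest libraries of the other groups, while the other 3 WT libraries lay above all 8 libraries of the engineered lines. With shTST NDRG1 fell by 0.43 ± 0.083 log2, or -25.9% (edgeR adjusted p = 0.00133). With overTST it fell by 0.36 ± 0.090 log2, or -22.1% (edgeR adjusted p = 0.0031), and was not called after length correction (-0.22 log2, edgeR adjusted p = 0.0638). It was called when the replicate block was added to that correction. The lines did not differ detectably from each other (-0.07 log2, 95% interval -0.25 to 0.11). The shTST call held in each fit that left out a library, the highest edgeR adjusted p being 0.00868.

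**Figure D2:**
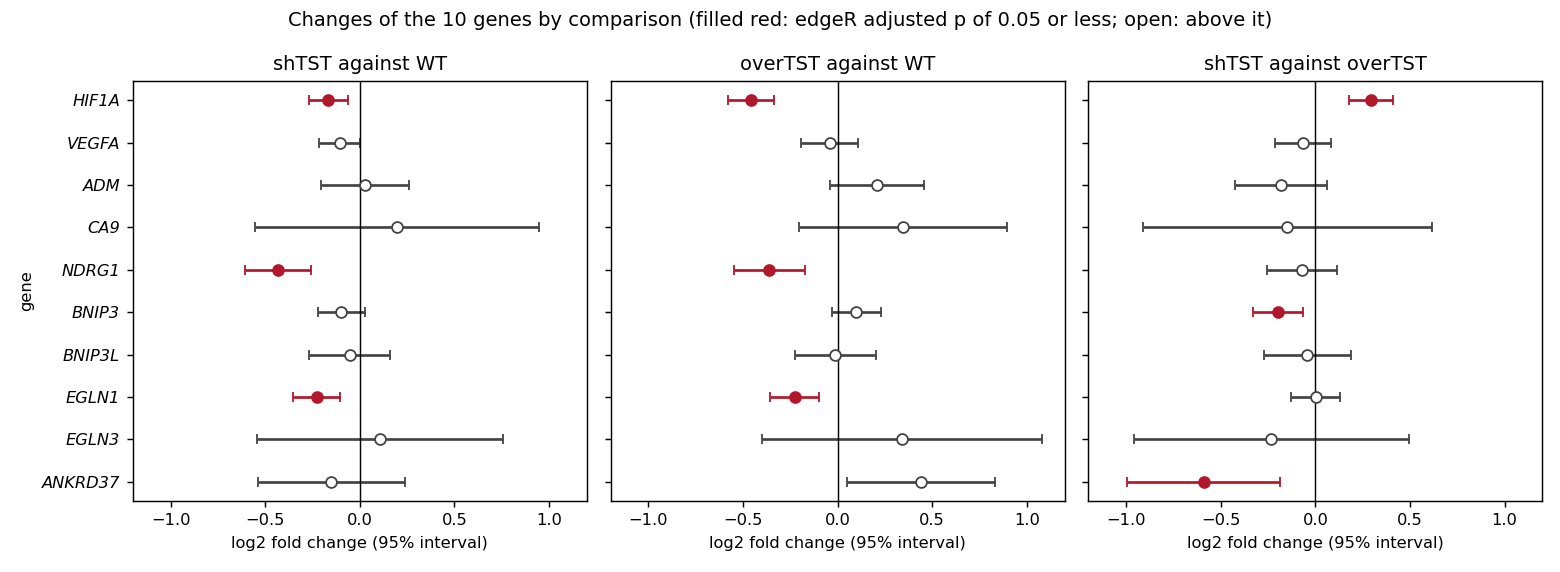
Log2 fold change with its 95% interval (horizontal axis) for each of the 10 genes in the 3 comparisons, with filled red points for an edgeR adjusted p of 0.05 or less. HIF1A, NDRG1 and EGLN1 stand left of 0 in both comparisons with WT, and the low-count genes CA9 and EGLN3 have the widest intervals.

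The secreted factors were called in neither line. VEGFA, the principal angiogenic growth factor (chromosome 6, 43770184 to 43786487, plus strand), was at 53.7, 56.0, 53.6 and 53.7 CPM in WT, the narrowest spread of the 10 genes in that group (coefficient of variation 2.15%). It was at 55.1, 47.9, 49.5 and 49.2 CPM in shTST, where 3 of 4 libraries lay below WT, and its change was -0.11 ± 0.051 log2 (edgeR adjusted p = 0.165). The overTST libraries fell on both sides of WT, at 47.0 and 45.2 CPM in replicates 1 and 2 and at 57.6 and 61.1 CPM in replicates 3 and 4. ADM, which encodes the vasodilator peptide adrenomedullin, averaged 6.89 ± 1.13 CPM in WT, 7.01 ± 0.696 CPM in shTST and 8.0 ± 1.09 CPM in overTST (SD, n = 4). Its groups overlapped, and the change in overTST was 0.21 ± 0.12 log2 (edgeR adjusted p = 0.193).

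Of the mitophagy receptors, BNIP3 differed between the engineered lines and was called against WT in neither. The gene lies on chromosome 10 from 131966455 to 131982013 (minus strand). BNIP3 was at 73.8, 68.3, 78.3 and 83.3 CPM in WT, at 74.6, 65.7, 75.8 and 67.2 CPM in shTST, and at 84.7, 71.7, 83.7 and 84.8 CPM in overTST. The overTST libraries 1, 3 and 4 were above all others, and library 2 lay within the range of shTST. BNIP3 was not called with shTST (-0.10 log2, edgeR adjusted p = 0.284) or with overTST (0.10 log2, edgeR adjusted p = 0.244). The direct comparison called 3 of the 10 genes (1 higher and 2 lower in shTST), against 33% of all genes, and BNIP3 was among them at -0.20 ± 0.064 log2 (edgeR adjusted p = 0.0184). This call was lost without shTST replicate 2 or 4 or overTST replicate 3 or 4, at an edgeR adjusted p of 0.0581 to 0.0754. Many processed copies of BNIP3 exist in the genome. None collected more than 17 reads in a library, which does not show whether reads shared with them were lost from BNIP3. BNIP3L, its paralog that clears mitochondria from maturing red cells, averaged 24.6 ± 3.92, 23.5 ± 3.92 and 24.3 ± 3.84 CPM in WT, shTST and overTST, with full overlap. Its 95% interval was -0.27 to 0.16 log2 in shTST and -0.22 to 0.20 log2 in overTST.

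ANKRD37, an ankyrin repeat gene with a strong hypoxia response in many lines (chromosome 4, 185396021 to 185400628, plus strand), was low throughout, with 40 to 85 reads per library. It was at 2.06, 1.87, 2.07 and 1.35 CPM in WT, at 1.75, 1.34, 1.48 and 2.06 CPM in shTST, and at 1.79, 2.41, 2.61 and 3.23 CPM in overTST. The overTST libraries 2 to 4 were above all others, and library 1 was within the range of WT and shTST. Its level was lower in shTST than in overTST (-0.59 ± 0.20 log2, edgeR adjusted p = 0.0224), and this was lost after length correction (-0.50 log2, edgeR adjusted p = 0.0535) and without shTST replicate 2 or 3 or overTST replicate 3 or 4 (edgeR adjusted p 0.0557 to 0.110). Against WT the overTST change was 0.44 ± 0.19 log2 (edgeR adjusted p = 0.0772), and it was called only without overTST replicate 1 (edgeR adjusted p = 0.0200, in a range over all alternatives of 0.0200 to 0.282). CA9, the membrane carbonic anhydrase that is absent from most normoxic tissues (chromosome 9, 35673856 to 35681159, plus strand), was at 0.791 to 1.13 CPM in WT. It was at 1.57, 0.234, 2.0 and 0.697 CPM in shTST and at 1.64, 0.551, 1.38 and 1.45 CPM in overTST. The shTST libraries held both the highest and the lowest value of all 12 (coefficient of variation 71.5%), and no change was detectable (95% interval -0.55 to 0.95 log2 in shTST). Exons of CA9 share 643 bases with ARHGEF39 and those of ANKRD37 share 909 bases with UFSP2, in each case on the opposite strand. Whether counting was stranded is not given in the sources used here. It therefore cannot be told whether reads from the shared bases were left out of CA9 and ANKRD37, or whether reads of these partners were counted for them.

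Gene length bore on the overTST comparison. Over all genes the median change there ran from 0.19 log2 for exonic lengths of at most 2 kb to -0.16 log2 above 8 kb, and 41.6% of the longest genes were called lower against 2.4% of the shortest. After removal of this trend from each library HIF1A (5151 bases) was still lower in overTST (-0.42 log2, edgeR adjusted p = 5.6e-06). The calls of NDRG1 (9823 bases) and EGLN1 (7265 bases) were lost, as given above, and that of NDRG1 returned with the replicate block. VEGFA, the longest with 14431 bases, went from -0.04 to 0.15 log2 in overTST (edgeR adjusted p = 0.142), and its direct difference between shTST and overTST became -0.23 log2 (edgeR adjusted p = 0.0178). The lengths corrected for are those of all annotated exons together and can exceed those of the transcripts present. How far the corrected values, among them those of VEGFA and NDRG1, depend on this was not tested. In the shTST comparison the same classes ran only from 0.04 to -0.02 log2, and HIF1A, EGLN1 and NDRG1 were all called after the correction.

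**Figure D3:**
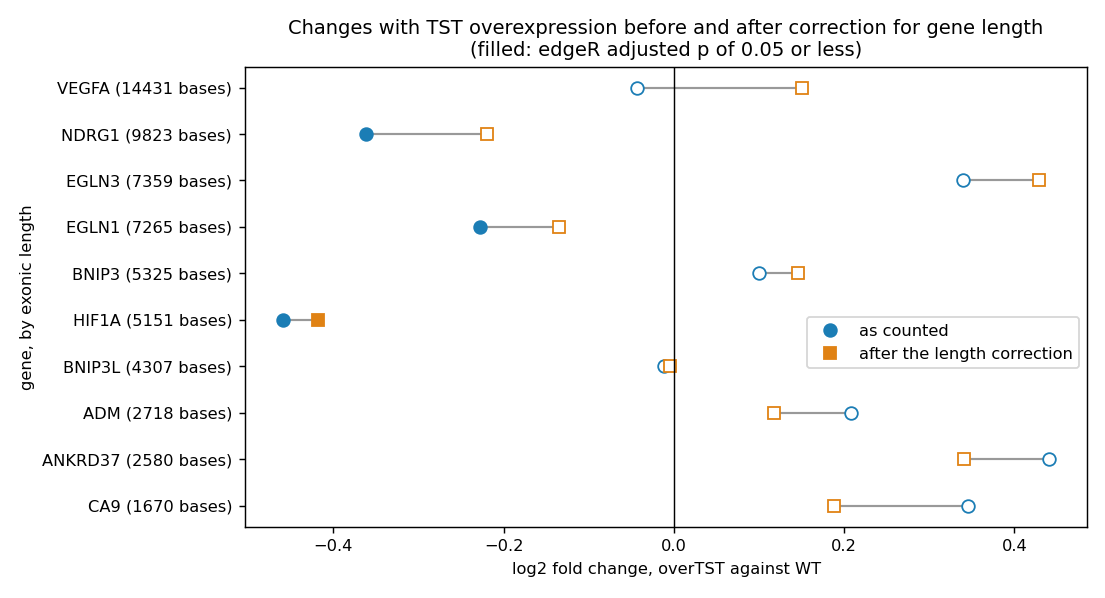
Log2 fold change in overTST against WT (horizontal axis) for the 10 genes ordered by exonic length, as counted (circles) and after the length correction (squares), filled where the edgeR adjusted p is 0.05 or less. HIF1A stays filled at -0.46 and -0.42, while NDRG1 and EGLN1 lose their fill and VEGFA crosses 0.

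The other parts of the HIF machinery were then examined. Of the partner subunits and coactivators, 5 of 6 were tested. EPAS1, which encodes HIF-2α and was more abundant than HIF1A (31.0 ± 2.37 against 24.9 ± 1.79 RPKM in WT), was the only 1 of the 5 called in shTST, at -0.20 log2 (edgeR adjusted p = 0.00968). In overTST 4 of 5 were called lower (18.2% of all genes) and none higher, with a list median of -0.36 log2 against 0.0019 log2 over all genes, and EPAS1 was not called (-0.09 log2, edgeR adjusted p = 0.215). ARNT2, an alternative partner of HIF1A, was at 0.896 ± 0.229 CPM in overTST against 2.02 ± 0.238 CPM in WT (-1.17 log2, edgeR adjusted p = 1.5e-04). The coactivator acetyltransferases EP300 (-0.42 log2, edgeR adjusted p = 4.3e-05) and CREBBP (-0.36 log2, edgeR adjusted p = 2.0e-04) and the obligate partner ARNT (-0.18 log2, edgeR adjusted p = 0.0308) were also lower. After length correction 3 of 5 were called lower and the median was -0.16 log2, ARNT being the call that was lost.

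Of 10 genes of oxygen sensing and HIF degradation tested, edgeR called 0 in shTST (1 at an unadjusted p under 0.05, 0 with DESeq2 or limma-voom), against 16.1% of all genes. In overTST 3 members were called higher and 2 lower, against 33.9% of all genes called, and the count of lower calls was 1 without WT replicate 1 or overTST replicate 4. VHL, the substrate receptor of the ligase, was lower in overTST (-0.19 log2, edgeR adjusted p = 0.0160). The partner subunits of the ligase ELOB (0.29 log2, edgeR adjusted p = 9.4e-04), ELOC (0.29 log2, edgeR adjusted p = 3.3e-04) and RBX1 (0.30 log2, edgeR adjusted p = 6.4e-04) were higher, ELOB no longer after length correction (edgeR adjusted p = 0.0983). CITED2, which competes with HIF1A for EP300 and CREBBP, was lower (-0.34 log2, edgeR adjusted p = 8.3e-04). The remaining members, among them EGLN2 (0.14 log2) and the asparagine hydroxylase HIF1AN (-0.05 log2), were not called in overTST.

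The targets that carry glucose uptake and glycolysis lay mostly below WT in shTST. Of 22 tested, 10 were called lower and none higher by edgeR, DESeq2 or limma-voom (45.5% lower, against 9.4% of all genes), the list median was -0.18 log2 against 0.0040 log2 over all genes, and 20 of the 22 changes were negative. Without WT replicate 4 or shTST replicate 4 the count of lower calls was 6. At an unadjusted edgeR p under 0.05 there were 13 lower and 1 higher. Length correction with the replicate block called 1 higher. SLC2A1, the glucose transporter GLUT1, was at 1012 ± 132 CPM in WT and 653 ± 84.4 CPM in shTST (-0.63 log2, edgeR adjusted p = 2.8e-05), and PDK3, which restrains pyruvate dehydrogenase, fell by 0.31 log2 and the aldolase ALDOA by 0.28 log2. In overTST 3 were called higher and 4 lower, with a median of 0.04 log2, a share near the 33.9% of all genes called. SLC2A1 was again low at 665 ± 37.3 CPM (-0.61 log2, edgeR adjusted p = 6.5e-07), and hexokinase HK2 (-0.27 log2) and glycogen synthase GYS1 (-0.21 log2) were lower, while PFKP (0.32 log2), GAPDH (0.25 log2) and ALDOA (0.21 log2) were higher. After length correction the higher calls numbered 8 and the lower calls 3. The direct comparison called 11 of the 22 lower in shTST than in overTST and none higher, against 16.1% of all genes lower, with HK1 (-0.55 log2), PFKP (-0.51 log2) and ALDOA (-0.49 log2) among them. That count was 7 without shTST replicate 4 or overTST replicate 4. In both comparisons with WT 4 of the 22 were called lower and 1 was called in opposite directions. The same count over all genes was not made, so no excess can be read from this.

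**Figure D4:**
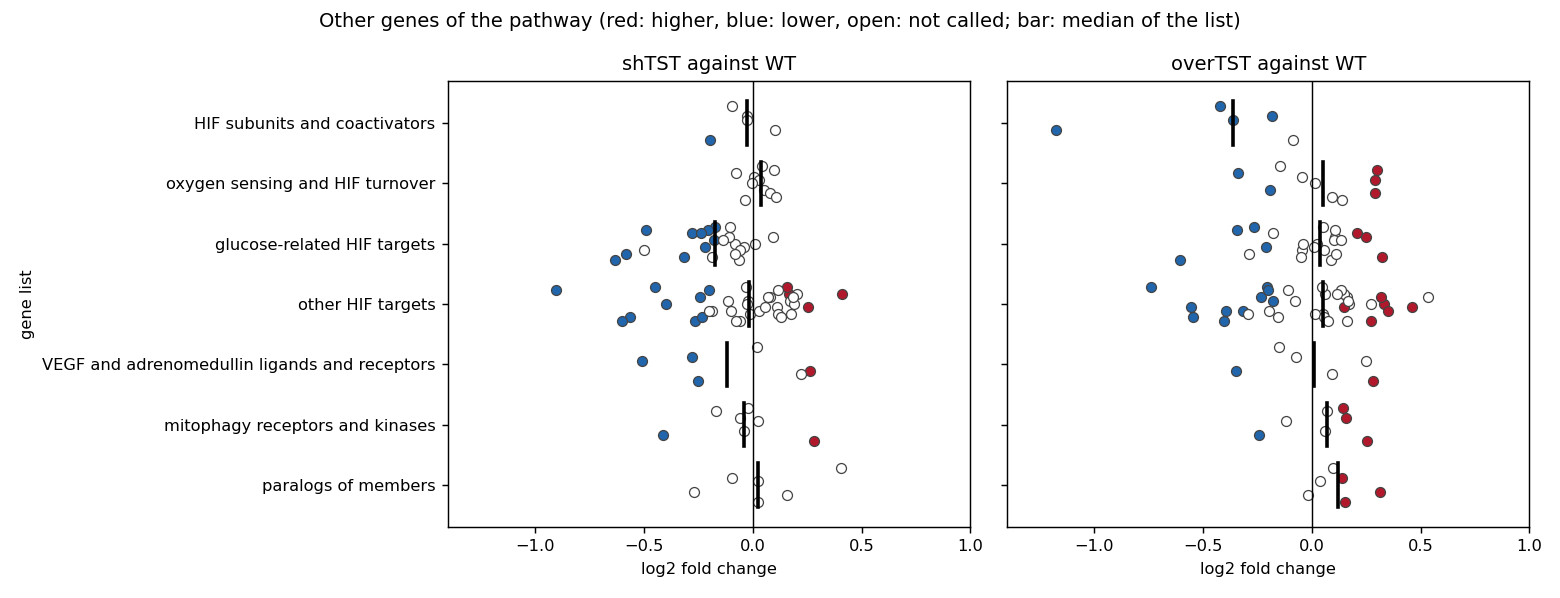
Log2 fold change (horizontal axis) of each tested gene in 7 lists of the HIF pathway, for shTST and overTST against WT, with red for higher, blue for lower and open points for genes not called, and a bar at the median of each list. The glucose-related targets lie mostly left of 0 in shTST (median -0.18) and around 0 in overTST (median 0.04), where the subunits and coactivators lie left (median -0.36).

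Other HIF targets were called in both directions. Of 36 tested, 4 were called higher and 9 lower in shTST, with a median of -0.02 log2 (6.69% higher and 9.4% lower over all genes), and 6 higher and 10 lower in overTST, with a median of 0.05 log2 (15.7% and 18.2% over all genes). The count of higher calls was 2 in shTST without shTST replicate 4, and in overTST it was 2 without overTST replicate 3 or 4 and 3 with DESeq2. Length correction with the replicate block raised it to 7 in shTST and 10 in overTST. The clock repressor BHLHE40 was lower in shTST (-0.60 log2, edgeR adjusted p = 6.8e-05) and at 0.16 log2 (not called) in overTST, and it differed between the lines in the direct comparison (-0.76 log2). VLDLR, a lipoprotein receptor, was lower in both lines (-0.45 log2 in shTST, edgeR adjusted p = 0.00445, and -0.74 log2 in overTST, edgeR adjusted p = 1.7e-05). Haem oxygenase HMOX1 (0.25 log2), the oxidase ERO1A (0.16 log2) and the adenylate kinase AK4 (0.15 log2) were higher in shTST, and FAM162A (0.35 log2) was higher in overTST. The cyclin CCNG2 (-0.55 log2) and the transferrin receptor TFRC (-0.55 log2) were lower in overTST. Of the 36, 5 were called lower in both lines, 1 higher in both and 1 in opposite directions. Both lines were compared with the same WT libraries, and the same count over all genes was not made, so no excess can be read from this.

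Around the secreted factors, VEGFB was lower in shTST (-0.25 log2, edgeR adjusted p = 0.0423) and higher in overTST (0.28 log2, edgeR adjusted p = 0.0103), and the VEGF coreceptor NRP1 went the other way (0.26 log2, edgeR adjusted p = 0.0144, and -0.35 log2, edgeR adjusted p = 0.00214). The direct comparison called both (-0.54 and 0.61 log2). The overTST calls of VEGFB and NRP1 were both lost after length correction (edgeR adjusted p 0.247 and 0.0787). In shTST PGF (-0.28 log2) and ADM2 (-0.51 log2, edgeR adjusted p = 1.7e-04) were also lower, making 1 higher and 3 lower of the 6 tested, while overTST had 1 of each with the higher count 2 without overTST replicate 1 or 2 and 0 after length correction, against 16.1% and 33.9% of all genes called. The signalling receptors FLT1, KDR and CALCRL were at or near 0 and were not tested. Among 7 mitophagy genes tested, FUNDC1 was higher (0.28 log2) and the kinase PINK1 lower (-0.41 log2, edgeR adjusted p = 3.6e-04) in shTST, against 16.1% of all genes called, and the FUNDC1 call was lost without shTST replicate 1. In overTST FUNDC1, FKBP8 and PHB2 were higher and PINK1 lower (-0.24 log2), against 33.9% of all genes called. None was called higher after length correction or without overTST replicate 3, and 1 was without WT replicate 2 or overTST replicate 4. None was called lower without WT replicate 4 or overTST replicate 4, and 2 were without WT replicate 2, with length or GC correction and with the replicate block. The paralogs NDRG2 (0.15 log2), NDRG3 (0.14 log2) and NDRG4 (0.31 log2) were higher in overTST (15.7% of all genes higher), where NDRG1 was lower, and these calls fell to 0 without WT replicate 1 or overTST replicate 3 and to 1 without WT replicate 3 or overTST replicate 4. Of the 6 paralogs tested, edgeR called 0 in shTST (3 at an unadjusted p under 0.05, 0 with DESeq2 or limma-voom), against 16.1% of all genes called.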

How the data were processed

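RNA of 12 HepG2 libraries was analysed. The authors deposited raw read counts per Ensembl gene with exonic lengths. The submitters' processing notes name Trimmomatic 0.36, STAR 2.5.2b and featureCounts (Subread 1.5.2) on GRCh38, and the use of strand is not given in the sources used here. The groups and replicate numbers come from the titles. The design text calls the replicates independent, and the study's methods define independent experiments in general as run on different days, without giving the days of these libraries.

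Genes were filtered with filterByExpr, scaled by TMM and tested with the quasi-likelihood test of edgeR 4.0.16 (R 4.3.3) with Benjamini-Hochberg adjustment at 0.05. Each line was compared with WT on its own 8 libraries, and the lines were compared in a fit of all 12. CPM were scaled over all 12 libraries, and log2 values for the pattern search used a prior count of 2. The members and lists were chosen with earlier results of these data known. Genes named in the text are TST, all 10 members and the 3 genes most like HIF1A. Others were drawn mainly from the smaller lists, the cell type markers, and the 3 largest calls per direction without overlap between groups of both lists of targets. Not every gene of these is named. A result that this rule would name is not reported here. Alternatives were DESeq2 1.42.0, limma 3.58.1 (voom), other scalings and filters, a fit without mitochondrial genes, a replicate block, a length correction (lowess, span 0.3), leaving out each library and, chosen after seeing the data, a GC correction. The procedure was also run on simulated counts, with the same extra spread set for every gene and library. The simulation did not copy the unlikeness of the WT libraries, so it does not show how the procedure performs on them. Symbols were matched for 56410 identifiers from the name table and 488 more from GENCODE 29. Promoters are from RefSeq. Figures were drawn with matplotlib 3.10.9.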

Additional observations from a re-analysis of the deposited data

Results flagged for a closer look

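In 33 groups of 4 libraries (the 10 genes and TST in each group), 4 held a library that stood apart from the other 3 by Dixon's criterion, where chance alone gives about 1 in 20. VEGFA in WT replicate 2 was at 56.0 CPM, against 53.6 to 53.7 CPM in the other WT libraries, and the spread of this group was small. NDRG1 in shTST replicate 3 was at 27.4 CPM, against 24.2 to 24.6 CPM, and without that library its change in shTST was -0.48 log2 (edgeR adjusted p = 0.00167, in a range over all alternatives of 1.6e-09 to 0.00868). BNIP3 in overTST replicate 2 was at 71.7 CPM, against 83.7 to 84.8 CPM, and without that library its change in overTST was 0.16 log2 (edgeR adjusted p = 0.0690, in a range over all alternatives of 0.0166 to 0.602). TST in shTST replicate 3 was at 36.6 CPM, against 33.0 to 33.6 CPM, still below every WT library.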

How the results depend on the processing

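Of the 3 lower calls among the 10 genes with shTST, every alternative other than leaving out a library kept 3. Leaving out a library gave 1 to 3, the lowest without shTST replicate 3. With overTST the count of lower calls was 1 after length correction, and NDRG1 was called again once the replicate block was added. The count of higher calls was 1 after length correction with the replicate block (BNIP3, 0.15 log2) and 0 to 1 on leaving out a library. In the direct comparison the count of lower calls was 0 to 2 on leaving out a library. Deviations of same-numbered libraries from their group means correlated at -0.05 to 0.08, against -0.11 to 0.08 for the other pairs between groups. No pairing by number was visible, but a weak pairing need not show in such correlations and was not excluded. The replicate block gave 2980 calls over all genes for shTST (2346 without), 5166 for overTST (4893) and 5232 for the direct comparison (4907), and changed no call of the 10 genes on its own. Without shTST replicate 1 there were 644 higher and 869 lower genes for shTST (975 and 1371 with it).

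Counts over the other lists and over all genes moved by over 1.5 times 32 times on leaving out a library and stayed within it 416 times; under other alternatives these numbers were 30 and 546. Values that changed sign belonged to genes that were not called in that comparison. CA9 in shTST was -0.16 with limma-voom. In overTST BNIP3L was 0.015 with upper-quartile scaling and 0.065 with GC correction, and VEGFA was 0.15 with length correction and 0.14 with the block added. EGLN1 in the direct comparison, which lay at 0, was -0.0014 with DESeq2, -0.0031 with limma-voom, -0.0017 with RLE, -0.0088 with upper-quartile scaling, -0.0019 with the CPM filter, -0.0030 with the replicate block, -0.079 with length correction, -0.081 with the block added and -0.069 with GC correction. On leaving out a library the shTST changes ranged from -0.044 to 0.11 for ADM, -0.27 to 0.53 for CA9, -0.17 to 0.054 for BNIP3L and -0.12 to 0.45 for EGLN3. The overTST changes ranged from -0.12 to 0.025 for VEGFA, -0.10 to 0.095 for BNIP3L and -0.15 to 0.68 for EGLN3. The direct differences ranged from -0.051 to 0.042 for EGLN1, -0.61 to 0.18 for CA9, -0.16 to 0.027 for BNIP3L, -0.42 to 0.26 for EGLN3 and -0.13 to 0.013 for VEGFA. The causes of these shifts were not tested. CA9 (7 to 69 reads) and EGLN3 (10 to 41 reads) had the lowest counts and the widest intervals, and how far depth or the spread between libraries set these was not tested.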
